A study of Homo sapiens with 6 samples.

Results

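The 10 genes described here are markers and regulators of the epithelial and the mesenchymal cell state: CDH1, EPCAM, CLDN4, CLDN7 and ESRP1 on the epithelial side, and CDH2, VIM, FN1, ZEB1 and SNAI2 on the mesenchymal side. They were taken by gene symbol from the RNA sequencing tables, in which all 10 symbols have 1 entry each among 53826 entries. The tables cover a pair of established human lines grown from pancreatic ductal adenocarcinoma (PDAC), PK-1 and Panc-1. Control cells of each line were compared with cells exposed for 24 h to RARγi-1, the compound LY2955303, or to RARγi-2, the compound MM11253, antagonists of retinoic acid receptor γ that differ in structure. This gave 6 libraries, PK-1 Control, PK-1 RARγi-1, PK-1 RARγi-2, Panc-1 Control, Panc-1 RARγi-1 and Panc-1 RARγi-2, with 1 library per condition. There is therefore no replicate error, no test and no p-value. Both lines were grown in the same medium with serum. The dose used for sequencing and the vehicle of the control cells are not stated in the sources used here. A treatment entry names RARγi-1 for both RARγi-2 libraries, and the libraries were assigned by their titles.

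Values are TPM, transcript abundances that are scaled for transcript length and to a fixed total, so that they can be compared between genes. The authors raised every value under 1 TPM to 1 TPM, and a gene at that floor had 1 TPM or less. Between 13149 and 13652 entries per library lay above the floor. Changes are log2 ratios of (TPM + 1) between libraries, and a change past 2-fold is one beyond 1 or -1 on that scale. Where 1 of the libraries is at the floor, the fold is a bound. As a yardstick in place of replicates, both treated libraries of a line were compared with each other over all entries that reached 5 TPM in any library of that line. The robust spread of their log2 differences was 0.41 for PK-1 and 0.32 for Panc-1, which includes real differences between the inhibitors. After rescaling by median ratios, the log2 values of PK-1 RARγi-1 against control moved by -0.13. The other comparisons moved by at most 0.10 in either direction.

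Epithelial cells are joined to their neighbours by adherens junctions, built on the adhesion protein E-cadherin, and by tight junctions, whose sealing strands are made of claudins. In the epithelial to mesenchymal transition (EMT), transcription factors of the ZEB and SNAIL families bind E-box sequences in epithelial genes and repress them. Mesenchymal cells carry N-cadherin in place of E-cadherin, a vimentin intermediate filament network and fibronectin in the matrix around them. Tumor cells of the pancreas often occupy states between these ends, and cell lines derived from them differ widely in position.

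The first question was how the lines differed before treatment. PK-1 cells had the higher level of all 5 epithelial members, and Panc-1 cells had the higher level of VIM, CDH2 and ZEB1. SNAI2 and FN1, which are usually counted as mesenchymal, were higher in PK-1. Since the RNA came from whole cultures, fewer cells of a type and less RNA per cell cannot be told apart.

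CDH1 (Entrez 999, chr16:68737292-68835537 in GRCh38.p14) encodes E-cadherin. It measured 170.1 TPM in PK-1 Control, 270.2 TPM in PK-1 RARγi-1 and 385 TPM in PK-1 RARγi-2, and no Panc-1 library was above the floor. The control libraries differed by at least 170.1-fold, a difference that 0.328% of the 14618 entries compared equalled or exceeded. ESRP1 (Entrez 54845, chr8:94641174-94707466), a splicing regulator that keeps epithelial isoforms in use, had the same distribution over the lines. It measured 107 TPM, 218 TPM and 304 TPM in the PK-1 libraries in the same order and lay at the floor throughout Panc-1, so that the controls differed by at least 107-fold. These genes divided the lines into expressing and floor libraries with no value between.

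EPCAM (Entrez 4072, chr2:47369311-47387020) encodes an epithelial cell adhesion molecule. Its level was 578 TPM, 552 TPM and 497 TPM in PK-1 Control, RARγi-1 and RARγi-2, against 13.4 TPM, 19.4 TPM and 9.18 TPM in the Panc-1 libraries. PK-1 Control exceeded Panc-1 Control by 43.2-fold, and EPCAM was the most abundant member in PK-1 Control. CLDN4 (Entrez 1364, chr7:73830996-73832690), a tight junction claudin, was at 415 TPM, 596 TPM and 640.1 TPM in PK-1 and at 62.9 TPM, 94.5 TPM and 83.0 TPM in Panc-1. CLDN7 (Entrez 1366, chr17:7259903-7263213), another claudin of simple epithelia, was at 277 TPM, 488 TPM and 942 TPM in PK-1 and at 29.3 TPM, 96.8 TPM and 96.7 TPM in Panc-1. Panc-1 thus retained claudin and EPCAM transcripts while CDH1 and ESRP1 were at the floor. The control libraries differed by 6.60-fold for CLDN4 and by 9.46-fold for CLDN7.

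VIM (Entrez 7431, chr10:17228241-17237593) encodes vimentin, the intermediate filament protein of mesenchymal cells. It measured 6291 TPM in Panc-1 Control, 4049 TPM in Panc-1 RARγi-1 and 3962 TPM in Panc-1 RARγi-2, against 41.7 TPM, 92.1 TPM and 140.0 TPM in the PK-1 libraries. It was the entry with rank 6 of all entries in Panc-1 Control and rank 3737 in PK-1 Control. The difference of 151-fold between the controls had only 0.171% of entries at or beyond its size. CDH2 (Entrez 1000, chr18:27932879-28177130), which encodes N-cadherin, was low even where present, at 6.36 TPM, 3.55 TPM and 2.63 TPM in Panc-1 and at the floor throughout PK-1. FN1 (Entrez 2335, chr2:215360865-215436068), the fibronectin gene, was at 5.15 TPM, 2.22 TPM and 1.92 TPM in PK-1 and at the floor throughout Panc-1. Fibronectin transcripts therefore lay low in both lines and higher in the line without CDH2.

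ZEB1 (Entrez 6935, chr10:31318417-31529804), a zinc finger repressor of CDH1, was at the floor in the 3 PK-1 libraries and measured 8.65 TPM, 14.5 TPM and 10.9 TPM in Panc-1. SNAI2 (Entrez 6591, chr8:48917598-48921429) encodes SLUG, a SNAIL family repressor that is also made by basal and squamous epithelial cells. It measured 46.7 TPM in PK-1 Control, 45.1 TPM in PK-1 RARγi-1 and 18.7 TPM in PK-1 RARγi-2. In Panc-1 it was at 1.45 TPM in the control library and at the floor in both treated libraries. The controls differed by 32.1-fold for SNAI2 and in the opposite direction by at least 8.65-fold for ZEB1, so that each line expressed mainly 1 of these repressors.

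**Figure D1:**
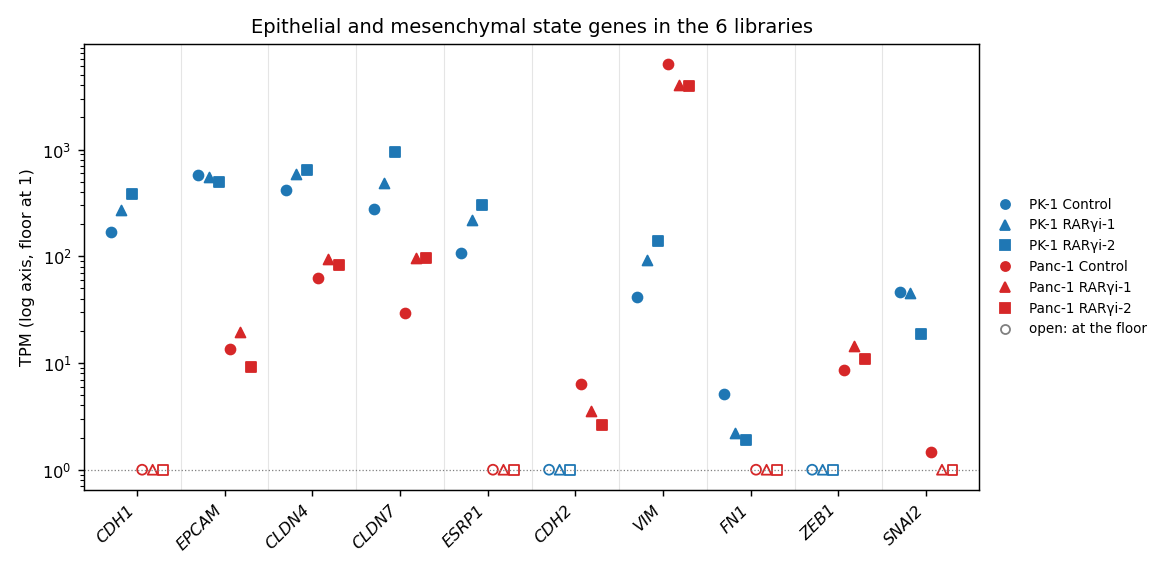
TPM of the 10 genes in the 6 libraries, on a log axis whose lowest value is the floor of 1 TPM; blue points are PK-1, red points Panc-1, circles control, triangles RARγi-1, squares RARγi-2, and open points libraries at the floor. The 5 epithelial genes on the left, and FN1 and SNAI2, have all PK-1 points above all Panc-1 points, while CDH2, VIM and ZEB1 have the reverse.

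All 10 members differed by more than 2-fold between the control libraries, 7 of them higher and 3 lower in PK-1. Over all 14618 entries above the floor in at least 1 of the control libraries, 14.6% were higher and 15.7% were lower in PK-1 by more than 2-fold. The median log2 difference was 2.95 over the members, with floor values at their bounds, and -0.03 over all entries. The member median follows the make-up of the list, which holds epithelial and mesenchymal genes together. The members, and the lists below, were chosen with earlier results of these data known, so these counts and medians are descriptions only. The lines also did not overlap over the treatments: for 7 members all 3 PK-1 libraries lay above all 3 Panc-1 libraries, and for 3 members the reverse held. Among 15654 entries above the floor in at least 1 of the 6 libraries, 22.0% had all PK-1 libraries higher and 23.7% had all Panc-1 libraries higher. The 3 libraries of a line differ in treatment and are not replicates of it.

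The order of the members also separated the lines. In PK-1 Control it ran from EPCAM through CLDN4, CLDN7, CDH1, ESRP1, SNAI2 and VIM to FN1. The smallest step was that from SNAI2 to VIM, a log2 difference of 0.16. In Panc-1 Control it ran from VIM through CLDN4, CLDN7, EPCAM, ZEB1 and CDH2 to SNAI2. The smallest step there was 0.39, from ZEB1 to CDH2. The spread compares an entry with itself between libraries, so it is no measure of error for steps between genes. CLDN7 moved up this order with treatment, from place 3 in PK-1 Control to place 1 in PK-1 RARγi-2. In Panc-1 it moved from place 3 to place 2 in both treated libraries. It and CLDN4 there differed by log2 values of only 0.03 with RARγi-1 and 0.22 with RARγi-2. In PK-1 RARγi-1 the first 3 places were held by CLDN4, EPCAM and CLDN7. The steps from CLDN4 to EPCAM and from EPCAM to CLDN7 were small, at 0.11 and 0.18.

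The wider lists of epithelial genes divided the lines in the same direction. Beside their counts, 14.6% of all entries were higher and 15.7% lower past 2-fold in PK-1 Control. Of 38 genes of epithelial junctions and polarity, 28 were more than 2-fold higher in PK-1 Control and 1 was lower, with a median log2 difference of 2.68. Among the largest differences were those of ST14 and MAL2. ST14, the membrane protease matriptase, was at 245 TPM in PK-1 Control. MAL2, a protein of apical transport, was at 221 TPM, and both genes were at the floor in Panc-1 Control. The exception was CLDN3, a claudin at the floor in PK-1 and at 7.71 TPM in Panc-1 Control. Of 12 transcription and splicing factors of epithelia, 8 were higher in PK-1 Control and 0 lower past 2-fold (median 2.55). ELF3, EHF and KLF5, factors of differentiated epithelia, led with 92.6 TPM, 79.9 TPM and 55.1 TPM in PK-1 Control and were at the floor in Panc-1 Control.

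The other transcription factors of EMT were few in these cells. Of 11 on the list, 6 were at the floor in all 6 libraries, namely ZEB2, TWIST1, PRRX1, GSC, LEF1 and TCF4. Past 2-fold, 4 were higher in Panc-1 Control and 0 in PK-1 Control, beside 15.7% and 14.6% of all entries. FOXC2 was at 26.5 TPM in Panc-1 Control and at the floor in PK-1 Control, and SNAI1, the SNAIL gene itself, was at 15.5 TPM against 2.19 TPM. TCF3, the E2A factor that binds E-boxes, was at 80.9 TPM against 30.7 TPM. The fourth, named after its value was seen, was TWIST2 at 3.54 TPM against the floor.

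The mesenchymal effector genes were divided between the lines. Of 26, 24 were above the floor in at least 1 control library. Past 2-fold, 12 were higher in Panc-1 Control and 5 in PK-1 Control, beside 15.7% and 14.6% of all entries. The median log2 difference was -0.72. MSN, the cytoskeletal linker moesin, was at 219.7 TPM in Panc-1 Control and at the floor in PK-1. SPARC, a secreted matrix protein, was at 160.4 TPM in Panc-1 Control and at the floor in PK-1, and S100A4, also known as fibroblast-specific protein, was at 295 TPM against 11.1 TPM. In the other direction the matrix glycoprotein TNC was at 63.3 TPM in PK-1 Control and at the floor in Panc-1 Control. CALD1, caldesmon, was at 47.6 TPM against 4.57 TPM, and MMP14, a membrane matrix protease, was at 184 TPM against 30.2 TPM. The other 2 genes higher in PK-1 Control, named after their values were seen, were TGFB1 and PDGFC. PK-1 cells thus held some genes of this list at higher levels than Panc-1 cells did.

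**Figure D2:**
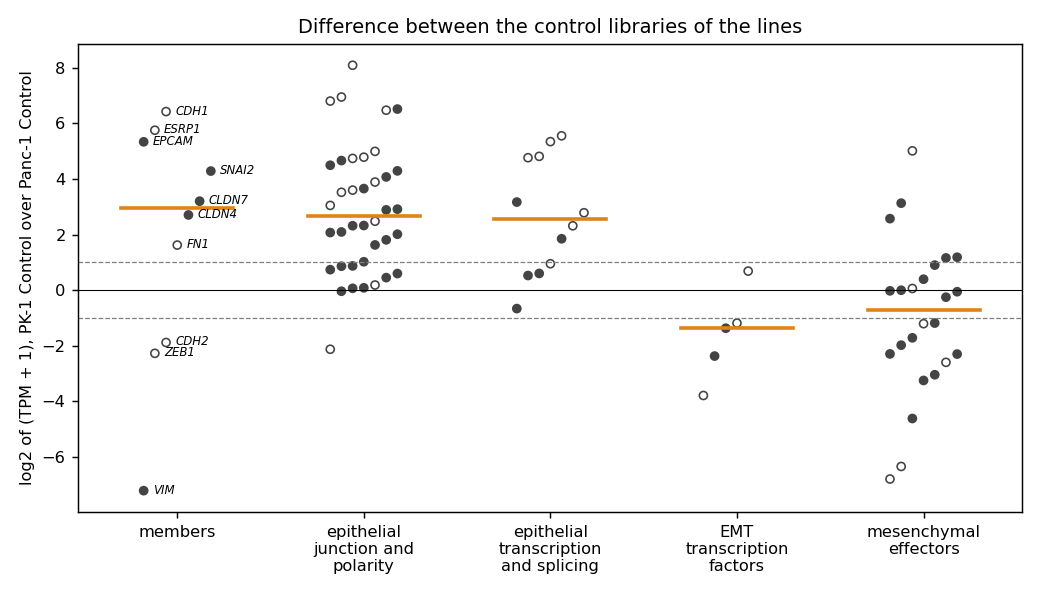
Log2 of (TPM + 1) in PK-1 Control over (TPM + 1) in Panc-1 Control for the 10 members and for the genes of 4 lists above the floor in at least 1 of these libraries; open circles have 1 library at the floor and are bounds, orange bars are medians and dashed lines mark 2-fold. The median of the junction and polarity list is 2.68, that of the epithelial factors 2.55, that of the EMT factors -1.37 and that of the mesenchymal effectors -0.72.

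Other cell types that could lie in a culture were checked through their markers. The ductal keratins KRT8, KRT18 and KRT19 were above 100 TPM in all 6 libraries, whereas KRT7 was at 5663 TPM in PK-1 Control and at 4.19 TPM in Panc-1 Control. The summed level of the 4 keratins was 21749 TPM, 12684 TPM and 13245 TPM in PK-1 Control, RARγi-1 and RARγi-2, and 8404 TPM, 1764 TPM and 1475 TPM in the Panc-1 libraries. Of 7 fibroblast markers, 6 were at the floor in all libraries, PDGFRA, PDGFRB and DCN among them, and COL6A3 reached 1.53 TPM in Panc-1 Control only. All 5 endothelial and all 3 endocrine markers were at the floor throughout. Among 6 leukocyte markers the defining genes PTPRC and CD3E were at the floor in every library, while the lysosomal gene CD68 was at 19.8 TPM, 95.0 TPM and 62.6 TPM in PK-1 and between 238 TPM and 276 TPM in Panc-1. Of 4 acinar markers 3 were at the floor throughout, and PRSS1 was at 1.06 TPM, 11.1 TPM and 21.2 TPM in the PK-1 libraries. The part of the keratin decrease, or of CD68, LYZ and PRSS1, in the changes below was not tested.

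The second question was how each inhibitor moved the members within a line. In PK-1 cells the epithelial genes CDH1, ESRP1, CLDN4 and CLDN7 were higher in both treated libraries, and so was VIM. EPCAM, the fifth epithelial member, had log2 changes of -0.07 and -0.22, within the spread. FN1 was lower in both, and SNAI2 was lower with RARγi-2. The members CDH2 and ZEB1 stayed at the floor. The comparisons of a line share 1 control library, so the values of the inhibitors are given side by side and are not independent.

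With RARγi-1, 2 of the 8 members above the floor in PK-1 were past 2-fold, VIM (log2 change 1.13) and ESRP1 (1.02), both higher. Over the 13965 entries compared, 9.25% were higher and 4.96% lower past 2-fold. CLDN7 had a log2 change of 0.81, CDH1 of 0.66 and CLDN4 of 0.52, beyond the spread of 0.41 but short of 2-fold. EPCAM at -0.07 and SNAI2 at -0.05 lay within the spread. FN1 went from 5.15 TPM to 2.22 TPM, a ratio of 2.33-fold lower, but a log2 change of only -0.94 with the pseudocount. The call of VIM and ESRP1 depended on the scaling: after rescaling they stood at 0.996 and 0.893, under 2-fold, and FN1 stood at -1.03. CLDN4 then stood at 0.39, within the spread. Of all entries past 2-fold in this comparison, 65.1% were higher as deposited and 52.7% after rescaling.

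With RARγi-2, 6 of the same 8 members were past 2-fold in PK-1. The 4 higher were CLDN7 (1.76), VIM (1.72), ESRP1 (1.51) and CDH1 (1.17), and the 2 lower were SNAI2 (-1.28) and FN1 (-1.08). Over the 14028 entries compared, 12.1% were higher and 12.6% lower past 2-fold. The median log2 change was 0.90 over the members above the floor and 0.03 over all entries, against 0.59 and 0.15 with RARγi-1. CLDN4 had a change of 0.62 and EPCAM of -0.22. Changes at least as large as those of CLDN7 and VIM were seen in 7.93% and 8.33% of entries, and at least as large as that of SNAI2 in 16.2%.

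In Panc-1 cells CLDN7 was the member that moved most, and it moved to nearly the same level with both inhibitors. Its level of 29.3 TPM in the control became 96.8 TPM under RARγi-1 and 96.7 TPM under RARγi-2, log2 changes of 1.69 in both. Changes of that size were seen in 3.43% of 14004 entries with RARγi-1 and in 6.57% of 13921 entries with RARγi-2. CLDN7 was the only 1 of 7 members above the floor that passed 2-fold with RARγi-1, where 7.4% of entries were higher and 6.03% lower. With RARγi-2, CLDN7 was higher and CDH2 lower (-1.02), beside 8.5% of all entries higher and 11.2% lower. The median log2 change over the members above the floor was 0.51 with RARγi-1, beside 0.09 over all entries. With RARγi-2 it was -0.29, the bound of SNAI2, beside -0.03 over all entries. The members CDH1, ESRP1 and FN1 stayed at the floor in every Panc-1 library.

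The remaining members above the floor in Panc-1 changed by less than 2-fold. VIM had log2 changes of -0.64 with RARγi-1 and -0.67 with RARγi-2, beyond the spread of 0.32. Its TPM of 3962 in the lower of the treated libraries was still rank 20 of all entries. CDH2 had a change of -0.69 with RARγi-1, from 6.36 TPM to 3.55 TPM. ZEB1 was at 0.68 with RARγi-1 and 0.30 with RARγi-2, the latter within the spread. CLDN4 was at 0.58 and 0.40, and EPCAM at 0.51 and -0.50. EPCAM was thus the only member whose 2 values in a line lay beyond the spread on opposite sides of 0. SNAI2 went from 1.45 TPM to the floor with both inhibitors, so that it was at least 1.45-fold lower.

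**Figure D3:**
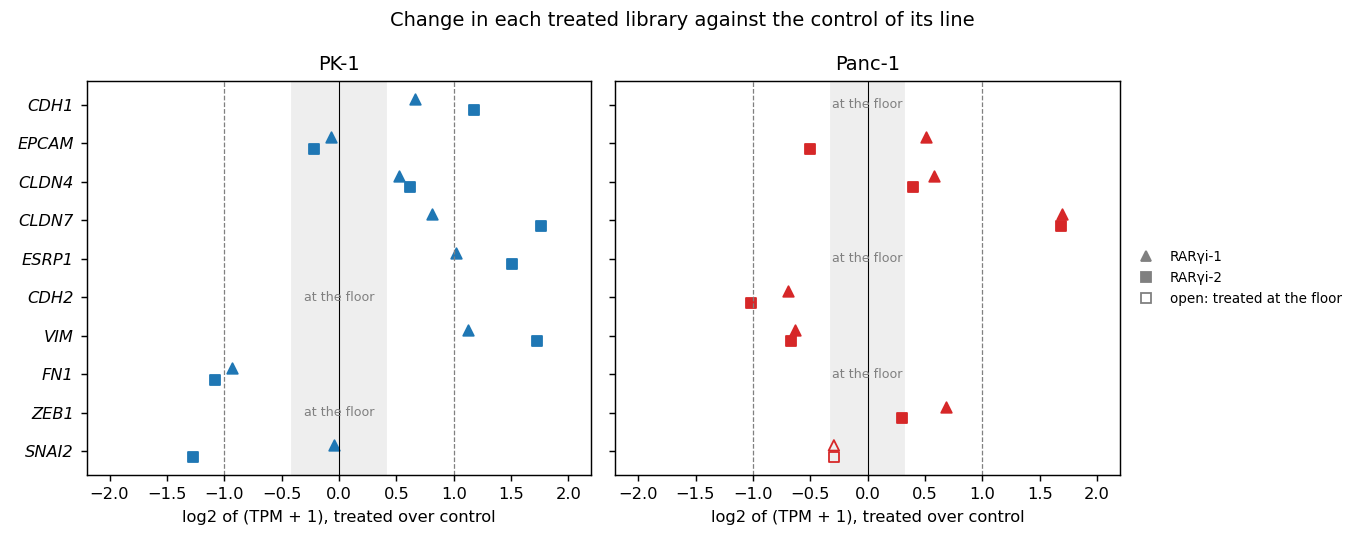
Log2 ratios of (TPM + 1) for each treated library against the control of its line, with PK-1 on the left and Panc-1 on the right; triangles are RARγi-1, squares RARγi-2, and open symbols have the treated library at the floor. Dashed lines mark 2-fold and the grey band the spread between libraries of each line; CLDN7 lies to the right in both lines, whereas VIM lies to the right in PK-1 and to the left in Panc-1.

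VIM was the member with opposite changes in the lines. Its level was 151-fold higher in Panc-1 than in PK-1 among the controls, 43.9-fold higher among the RARγi-1 libraries and 28.3-fold higher among the RARγi-2 libraries. The difference between the lines narrowed from both sides, with 92.1 TPM and 140.0 TPM in the treated PK-1 libraries and 4049 TPM and 3962 TPM in the treated Panc-1 libraries. For CDH1, with every Panc-1 library at the floor, the lower bounds on the difference were 170.1-fold, 270.2-fold and 385-fold, which leaves the difference itself unmeasured. For EPCAM the difference was 43.2-fold, 28.4-fold and 54.2-fold in the same order, and for CLDN7 it was 9.46-fold, 5.04-fold and 9.74-fold.

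In the wider epithelial lists genes moved in both directions. Of the 37 junction and polarity genes above the floor in PK-1, 5 were higher and 1 lower past 2-fold with RARγi-1, beside 9.25% and 4.96% of all entries. With RARγi-2, 6 were higher and 5 lower, beside 12.1% and 12.6% of all entries. Those higher with both were OCLN, CRB3, PRSS8 and BSPRY. OCLN, the tight junction protein occludin, measured 13.7 TPM, 36.6 TPM and 73.1 TPM in the PK-1 libraries, and CRB3, a polarity protein of the apical membrane, 15.5 TPM, 37.9 TPM and 53.4 TPM. PRSS8, the membrane protease prostasin, measured 52.3 TPM, 146 TPM and 115 TPM, and BSPRY, a B-box and SPRY domain protein, 28.6 TPM, 84.1 TPM and 96.2 TPM. PKP2, a desmosomal plaque protein, was lower with both, at 53.9 TPM, 24.2 TPM and 16.9 TPM. Named after their values were seen, the fifth gene higher with RARγi-1 was CBLC, and CDH3, CGN and DSG2 were among the others lower with RARγi-2. After rescaling, CBLC (0.88) and DSG2 (-0.98) were short of 2-fold.

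In Panc-1, where 25 genes of the same list were above the floor, 3 were higher and 5 lower with RARγi-1, beside 7.4% and 6.03% of all entries. With RARγi-2, 4 were higher and 7 lower, beside 8.5% and 11.2% of all entries. OCLN was again higher, at 14.1 TPM, 31.8 TPM and 34.7 TPM, and with it CLDN3 and TJP1. CLDN3 went from 7.71 TPM to 24.4 TPM and 37.6 TPM, and TJP1, the scaffold protein ZO-1, from 14.96 TPM to 35.5 TPM and 37.4 TPM. The genes lower with both included JUP, PPL, EVPL and AP1M2. JUP, plakoglobin of the desmosome, went from 91.5 TPM to 16.2 TPM and 11.8 TPM. PPL and EVPL, the plakins periplakin and envoplakin, went from 8.71 TPM to 1.52 TPM and the floor and from 20.1 TPM to 8.06 TPM and 5.28 TPM. AP1M2, an epithelial sorting adaptor, went from 8.87 TPM to 2.73 TPM and 1.08 TPM. The fourth gene higher with RARγi-2 was CTNNA1, a catenin described next. In Panc-1, OCLN, CLDN3 and TJP1 were therefore on the higher side, and JUP, PPL and EVPL on the lower side.

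The catenins, which tie E-cadherin to the actin cytoskeleton, were looked at after their values had been seen. CTNNA1, α-catenin, measured 230.1 TPM, 336 TPM and 555 TPM in PK-1 and 138 TPM, 263 TPM and 329.8 TPM in Panc-1, with log2 changes of 0.54, 1.27, 0.93 and 1.25. CTNNB1, β-catenin, lay between 101 TPM and 136 TPM in PK-1 and between 71.1 TPM and 89.3 TPM in Panc-1. Its log2 changes in the same order were -0.05, -0.42, -0.03 and -0.33, those with RARγi-2 just beyond the spread. CTNND1, p120 catenin, lay between 77.9 TPM and 85.8 TPM in PK-1, with changes of -0.05 and -0.14. In Panc-1 it was lower with both inhibitors, from 41.8 TPM to 26.0 TPM and 22.7 TPM (-0.67 and -0.85), beyond the spread. Panc-1 cells thus held transcripts of all 3 catenins with CDH1 at the floor and CDH2 at 6.36 TPM or less.

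The 12 epithelial transcription and splicing factors were all above the floor in PK-1. Past 2-fold, 2 were higher and 1 lower with RARγi-1, beside 9.25% and 4.96% of all entries. With RARγi-2, 6 were higher and 0 lower, beside 12.1% and 12.6% of all entries. KLF4, a zinc finger factor of differentiated epithelia, was higher past 2-fold in all 4 comparisons. It measured 33.8 TPM, 158 TPM and 173 TPM in PK-1 and 2.87 TPM, 7.84 TPM and 11.8 TPM in Panc-1. GRHL1, a grainyhead factor, was higher in PK-1 with both inhibitors, at 5.01 TPM, 14.1 TPM and 12.1 TPM. ELF3, named after its values were seen, went in opposite directions with the inhibitors in PK-1, with 92.6 TPM in the control, 45.7 TPM under RARγi-1 and 194 TPM under RARγi-2. In Panc-1, 6 factors were above the floor with RARγi-1 and 5 with RARγi-2. KLF4 and GRHL1 were higher and 0 lower with RARγi-1, beside 7.4% and 6.03% of all entries. GRHL1 was at 1.02 as deposited and 0.93 after rescaling. With RARγi-2, KLF4 was higher and FOXA2 lower, beside 8.5% and 11.2% of all entries. Of the EMT transcription factors, 4 were above the floor in each comparison. SNAI1 was higher in PK-1 with RARγi-1 (1.11), beside 9.25% of all entries. TCF3 was lower in Panc-1 with RARγi-2 (-1.09), beside 11.2% of all entries, and no other value was past 2-fold.

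The mesenchymal effectors had more genes lower than higher past 2-fold in Panc-1. Of 23 above the floor there, 2 were higher and 9 lower with RARγi-1, and 2 higher and 13 lower with RARγi-2, beside 7.4% and 6.03%, and 8.5% and 11.2%, of all entries. They had median log2 changes of -0.63 and -1.14 beside 0.09 and -0.03 over all entries. The second gene higher was MMP14 with RARγi-1 and LOX with RARγi-2, both named after their values were seen. After rescaling, MMP14 was at 0.95. SPARC had the largest change, from 160.4 TPM to 12.9 TPM and 8.35 TPM. S100A4 went from 295 TPM to 56.7 TPM and 34.2 TPM, and MMP2, a matrix protease, from 77.7 TPM to 19.0 TPM and 8.54 TPM. TGFBI, a matrix protein induced by TGFβ, went from 348 TPM to 88.2 TPM and 66.7 TPM, and CD44, the hyaluronan receptor, from 462 TPM to 196 TPM and 169 TPM. THY1, AXL, LOXL2 and TGFB2 were lower with both as well, and NNMT, a methyltransferase, was higher, at 3.61 TPM, 15.4 TPM and 19.3 TPM. VIM, with its smaller changes, was on the same side as SPARC and S100A4 in Panc-1.

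In PK-1 the effector list had 3 genes higher and 3 lower of 20 above the floor with RARγi-1, beside 9.25% and 4.96% of all entries. With RARγi-2 it had 2 higher and 6 lower of 21, beside 12.1% and 12.6% of all entries. TGFBI measured 651 TPM, 108 TPM and 82.6 TPM, and LOXL2, a lysyl oxidase of the matrix, 14.5 TPM, 5.68 TPM and 3.55 TPM. TGFB2, a TGFβ ligand, went from 8.32 TPM to 1.11 TPM and the floor. The genes higher with both were LOX, at 1.09 TPM, 3.58 TPM and 5.48 TPM, and EMP3, a membrane protein, at 69.2 TPM, 151 TPM and 186 TPM, although EMP3 with RARγi-1 was at 0.99 after rescaling. FN1 was on the side of TGFBI, LOXL2 and TGFB2 in PK-1, and VIM on the side of EMP3 and LOX.

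**Figure D4:**
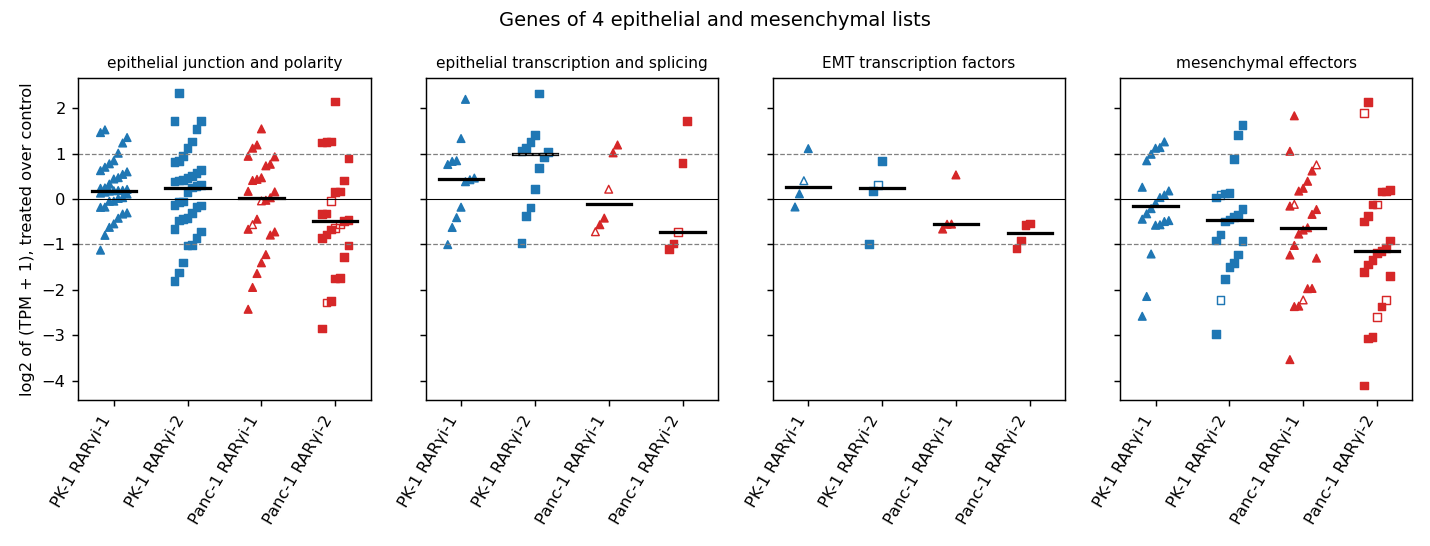
Log2 of (TPM + 1), treated over control, for the genes of 4 lists that were above the floor in at least 1 of the libraries compared; each panel is a list, each column a comparison, open symbols have 1 library at the floor, black bars are medians and dashed lines mark 2-fold. The medians of the mesenchymal effectors are -0.15, -0.45, -0.63 and -1.14 from left to right, while those of the junction and polarity genes are 0.19, 0.25, 0.03 and -0.48 in the same order.

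Cadherins and claudins were then compared as families. Of 22 cadherin genes, 16 were at the floor in all 6 libraries. CDH3, P-cadherin, was expressed in PK-1 only, at 62.5 TPM, 46.4 TPM and 23.2 TPM, so that it was lowest where CDH1 was highest. CDH24, a cadherin that binds catenins, was lower past 2-fold in all 4 comparisons, at 19.6 TPM, 7.18 TPM and 2.76 TPM in PK-1 and 8.44 TPM, 2.69 TPM and 1.18 TPM in Panc-1. CDH15, M-cadherin of muscle, was at the floor in Panc-1 Control and at 3.51 TPM and 9.24 TPM in the treated Panc-1 libraries. The cadherins as a group thus had members on both sides within each line.

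Of 21 claudin genes, 9 were at the floor in all 6 libraries. Above the floor were 7 in each PK-1 comparison, 12 in Panc-1 with RARγi-1 and 11 in Panc-1 with RARγi-2. Past 2-fold, 1 was higher in PK-1 with RARγi-1 and 3 with RARγi-2, beside 9.25% and 12.1% of all entries. In Panc-1, 2 were higher with each inhibitor, beside 7.4% and 8.5% of all entries. The only lower claudin was in Panc-1 with RARγi-2, where 11.2% of all entries were lower. That claudin was CLDN11, of myelin and testis, which went from 4.15 TPM to 1.77 TPM and 1.33 TPM and is named because the count is 1. The claudin past 2-fold in both PK-1 comparisons was CLDN12, at 22.7 TPM, 71.2 TPM and 94.3 TPM, and those in both Panc-1 comparisons were CLDN3 and CLDN7. With RARγi-2, CLDN1 and CLDN7 passed in PK-1 as well. The medians of the family were 0.52, 0.68, 0.46 and 0.40 in the order of PK-1 and then Panc-1 comparisons, beside 0.15, 0.03, 0.09 and -0.03 over all entries.

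**Figure D5:**
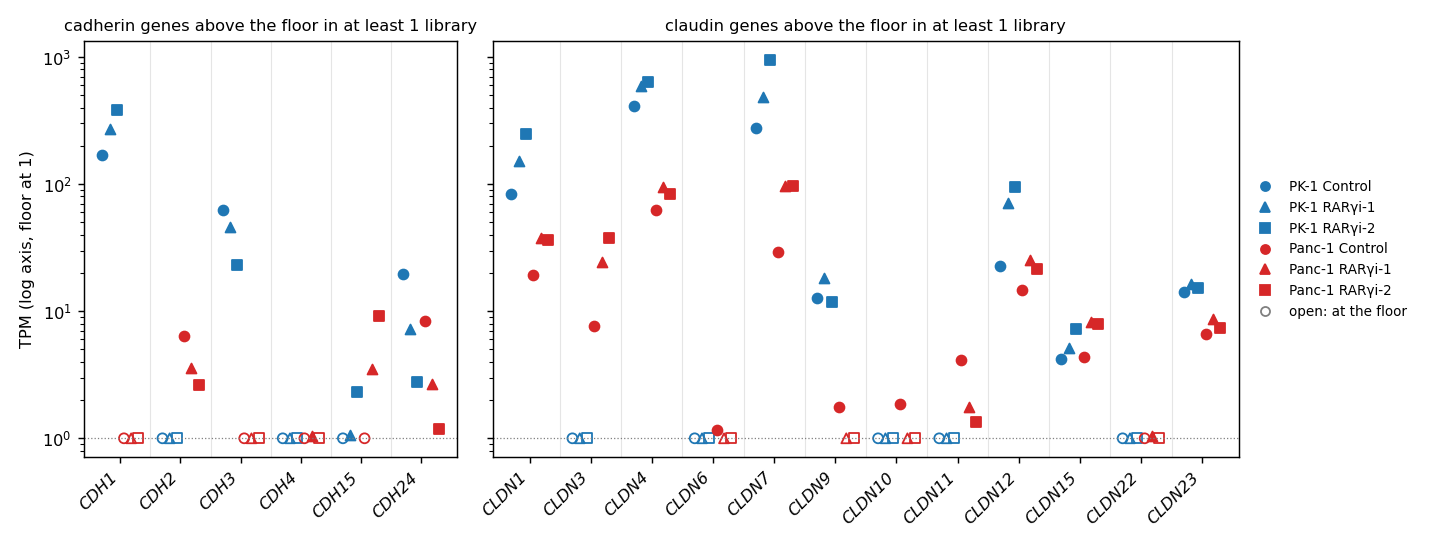
TPM of the 6 cadherin and 12 claudin genes above the floor in at least 1 library, on a log axis with the floor at 1 TPM; colours and symbols stand for lines and treatments as in the legend, and open points are at the floor. CDH1 and CDH3 run in opposite directions over the PK-1 libraries, and CLDN4 and CLDN7 have every treated point above the control of its line.

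Since ZEB1 and SNAI2 are among the members, the letters CACCTG and their reverse complement CAGGTG, an E-box form these repressors are known to bind, were looked for in the 250 bases before each start of the members in the RefSeq promoter table. The table, of build GRCh38.p14, holds entries for 6 of the 10 members, namely CDH2, VIM, ZEB1, FN1, CLDN4 and CLDN7. CDH1, SNAI2, EPCAM and ESRP1 have none. Of 35116 promoters in all, 17.5% held at least 1 such site and 0.122% held 4 or more, while 61.8% held any CANNTG, a form that includes these sites. None was found before the starts of CDH2, VIM, FN1 and CLDN4. ZEB1 had 1 and 2 before 2 of its 7 starts.

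CLDN7, which was higher in every treated library, had 4 sites before 1 of its 2 starts (chr17:7262479-7262728, minus strand) and 0 before the other (chr17:7263214-7263463). The first of these windows overlaps an untranslated exon of longer CLDN7 transcripts in GENCODE 29. The stretches that hold the sites are shown 5′ to 3′ on the minus strand, with the sites in capitals, because no other window searched for the 6 members held as many.
CLDN7, chr17:7262635-7262664: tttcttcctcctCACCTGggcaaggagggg
CLDN7, chr17:7262596-7262625: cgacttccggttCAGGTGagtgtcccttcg
CLDN7, chr17:7262479-7262508: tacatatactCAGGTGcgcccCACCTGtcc
The last stretch ends at the base before the start and holds 2 sites. These are matches of letters only, and binding at them was not measured. CLDN7 was at 277 TPM in PK-1 Control, with SNAI2 at 46.7 TPM and ZEB1 at the floor. In PK-1 RARγi-1 and RARγi-2 it was at 488 TPM and 942 TPM, with SNAI2 at 45.1 TPM and 18.7 TPM. In Panc-1 Control CLDN7 was at 29.3 TPM, with ZEB1 at 8.65 TPM and SNAI2 at 1.45 TPM. In Panc-1 RARγi-1 and RARγi-2 it was at 96.8 TPM and 96.7 TPM, with ZEB1 higher than in the control, at 14.5 TPM and 10.9 TPM. A link between these levels was not tested.

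Entries with the most similar pattern over the 6 libraries were found for 4 members by the distance between log2 (TPM + 1) values, each entry centred on its mean, among the 12402 entries that reached 5 TPM in any library. For CDH1 these were LAMB3, MAL2 and DHRS9, at distances of 0.34, 0.39 and 0.45. LAMB3, a laminin chain of epithelial basement membranes, measured 175 TPM, 364 TPM and 441 TPM in PK-1 and at most 1.26 TPM in Panc-1. For SNAI2 they were TP63, WNT7A and CDH3, at 0.53, 0.55 and 0.56. TP63, the p63 factor of squamous and basal epithelium, measured 29.7 TPM, 36.5 TPM and 14.4 TPM in PK-1 and was at the floor in Panc-1. SNAI2 itself was at 1.45 TPM in Panc-1 Control.

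For FN1 the nearest entries were TTYH1, DAB2IP and LGALS9, at distances of 0.15, 0.17 and 0.20. LGALS9, galectin 9, measured 5.06 TPM, 2.43 TPM and 2.38 TPM in PK-1 and was at the floor in Panc-1. For VIM the nearest were BARX1, ARHGAP4 and HOXC10, all at a distance of 1.35 or 1.36. These were at or near the floor in PK-1, where VIM was not. By this distance VIM had no entry as close to it as those of CDH1, SNAI2 and FN1. The distance was not scaled to the range of a gene, which can make it larger for a gene with a wide range. The likeness is a description over 6 values, which share their libraries.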

How the data were processed

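Total RNA of the 6 cultures was made into strand-specific mRNA libraries. The authors deposited log2 values of TPM per entry, with values under 1 TPM raised to 1 TPM. The submitters' processing notes list hg38. The aligner, counter and annotation are not given in the sources used here. TPM keeps no depth, so no counting interval was computed.

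Linear TPM was recovered from the deposited log2 values with Python 3.11.15, numpy 2.4.6 and pandas 2.3.3. Changes are log2 ratios of (TPM + 1). Entries above the floor in at least 1 of the libraries compared formed the background. The spread is 1.4826 times the median absolute deviation. Named genes are the members, the list genes past 2-fold in both comparisons of a line or with the 3 largest differences in each direction between the controls, and the 3 entries nearest to CDH1, VIM, FN1 and SNAI2. The members and lists were chosen with earlier results of these data known. Gene positions are from RefSeq GRCh38.p14. Only the 2-fold call was tested on simulated data, with changes placed on entries well above the floor. The spread, the rescaling, the nearest entries and the motif search were not tested in this way. Alternatives were other pseudocounts, fold thresholds, rescaling and a minimum of 5 TPM. No column of values was left out. A few genes of the lists are counted but not reported here by name.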

Additional observations from a re-analysis of the deposited data

Results flagged for a closer look

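Among the 132 members and list genes looked at, 7 had both treated libraries of one line higher than its control and both of the other line lower, with all 4 log2 changes beyond the spread of their line. All 7 were higher in PK-1 and lower in Panc-1. The difference between the lines was not tested, since there is 1 library per condition. Of all 15654 entries above the floor in any library, 145 (0.926%) had this pattern and 40 (0.256%) the reverse.

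For VIM the mean log2 change over both inhibitors was 2.08 higher in PK-1 than in Panc-1 (1.42 and -0.65). The difference was 3.44 for JUP, of the desmosome, and 2.88 for PPL, a plakin, the latter with a treated Panc-1 library at the floor. SPINT2, an inhibitor of epithelial membrane proteases, had a difference of 1.09. The epithelial factors GRHL3 and FOXA2 had differences of 1.66 and 1.77, with both treated Panc-1 libraries at the floor for GRHL3. SNAI1 had a difference of 1.59, with 2.19 TPM, 5.90 TPM and 4.69 TPM in the PK-1 libraries and 15.5 TPM, 9.43 TPM and 10.1 TPM in those of Panc-1. For SNAI1 and VIM the lines therefore came closer, and for JUP and PPL they moved apart.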

How the results depend on the processing

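No paired analysis was possible because each condition has 1 library. A pseudocount cannot change the direction of a difference, so the pseudocounts are no check of direction. Rescaling moved the log2 values by at most 0.13, so it could reverse only changes near zero. After it the members above the floor kept their direction in all 5 comparisons, and the lines stayed without overlap. The count of members past 2-fold moved by more than 1.5 times in 8 alternatives and by 1.5 times or less in 22. In PK-1 with RARγi-1 it was 2 as reported, and 3 with no pseudocount and with 0.1 TPM, where FN1 was added as lower. It was 1 with a pseudocount of 5 TPM (VIM), 1 after rescaling (FN1), 5 at a threshold of 1.5-fold and 0 at 3-fold. In PK-1 with RARγi-2 it fell from 6 to 2 at 3-fold (VIM and CLDN7). In Panc-1 with RARγi-1 it went from 1 to 4 at 1.5-fold. In Panc-1 with RARγi-2 it went from 2 to 1 with a pseudocount of 5 TPM and at 3-fold, where CDH2 was lost. The list counts moved by more than 1.5 times in 45 alternatives, mostly with the fold threshold, and by 1.5 times or less in 135. Summing repeated symbols would change nothing for the members, since no member's symbol is repeated, and it was not run for the lists. With 1 library per condition no value has a replicate check, and members at the floor, such as CDH1, ESRP1 and FN1 in Panc-1, allow only bounds.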
